A study of Mus musculus with 6 samples.

Results

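The nuclear genes that encode the subunits of respiratory chain complexes I to IV and of ATP synthase, complex V, were examined complex by complex in healing tendon. Members were taken by gene symbol: those beginning with Ndufa, Ndufb, Ndufc, Ndufs or Ndufv (but not Ndufaf), Sdha to Sdhd, Uqcr, Cox4 to Cox8, Cyc1 and Atp5. This rule found 86 of the 18099 genes in the table, with 37 in complex I, 4 in complex II, 9 in complex III, 19 in complex IV and 17 in complex V. Ndufa4 and its relative Ndufa4l2 were counted with complex IV, where the Ndufa4 protein sits, although their names come from complex I. Bulk RNA-seq was available from Achilles tendon repair tissue of neonatal mice, collected 7 days after transection, from 3 Lysm-Cre; Ampkα1fl/fl mice and 3 control mice. Lysm-Cre; Ampkα1fl/fl mice are designed to lack AMPKα1, the catalytic AMPK subunit encoded by Prkaa1, in myeloid cells, because Cre is driven there by the lysozyme 2 gene. The controls were littermates, described in the study's text as carrying the same floxed alleles, and both groups underwent the same transection. Whole repair tissue was sequenced, so tendon cells, macrophages and neighbouring tissue contribute to every value, and fewer cells of a type cannot be told apart from less RNA per cell.

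Libraries held 18076805 to 19479887 estimated reads assigned to genes. Prkaa1 had 740, 688 and 690 reads in control mice 1 to 3 and 626, 751 and 652 reads in Lysm-Cre mice 1 to 3, so the groups overlapped in whole tissue. Lyz2, the gene that carries the Cre insertion, had 7372 to 7778 reads in the controls and 8 to 15 reads in the Lysm-Cre mice. The tendon markers Scx and Tnmd were present in every library, at 101 to 141 and 1546 to 2049 CPM (library-scaled read counts, TMM factors applied), respectively. Of the 10 tendon markers listed, 5 had a positive and 5 a negative fitted fold change (Lysm-Cre over control). Of these, 1 passed an adjusted p of 0.05, Dcn, with a log2 fold change of -0.45 ± 0.06 SE (edgeR adjusted p = 0.030). Skeletal muscle RNA varied between mice: 43 muscle markers summed to 486, 1168 and 5466 CPM in the controls and to 5810, 2041 and 16310 CPM in the Lysm-Cre mice. Lysm-Cre mouse 3 therefore held the most muscle RNA of the 6 libraries and control mouse 1 the least. All 43 markers had a positive fitted fold change, 0 passed an adjusted p of 0.05 (edgeR; 0.898% of all genes tested did) and 5 had an unadjusted p under 0.05 (14.5% of all genes tested did). Other cell types differed as well, with 10 macrophage markers at 1100 to 1146 CPM in the controls and 720 to 914 CPM in the Lysm-Cre mice, and the 9 erythroid markers in the table at 1998 to 2974 CPM against 676 to 983 CPM. Of the 10 macrophage markers, 3 had a positive and 7 a negative fitted fold change, and 0 passed an adjusted p of 0.05 (edgeR). All 7 erythroid markers tested were negative, and 6 passed. The 8 white adipocyte markers summed to 474, 413 and 613 CPM in the controls and to 357, 167 and 425 CPM in the Lysm-Cre mice, and all 8 were lowest in Lysm-Cre mouse 2. The part of these cells in the values of the subunits was not tested.

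Oxidative phosphorylation passes electrons from NADH through complex I, or from succinate through complex II, to ubiquinone. Complex III hands them on to cytochrome c, and complex IV (cytochrome c oxidase, COX) reduces oxygen with them. The proton gradient built by complexes I, III and IV drives ATP synthesis by complex V. Several complex IV subunits exist as a ubiquitous form and a form typical of heart and skeletal muscle, so the COX isoforms also mark the tissue they come from. AMPK is known for promoting mitochondrial biogenesis when cellular energy falls.

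No subunit passed the test between the groups. Of 85 members tested, 0 had an adjusted p under 0.05 (edgeR quasi-likelihood test, Benjamini-Hochberg over 14261 genes), where 0.898% of all genes tested did, and the lowest adjusted p was 0.269. Without adjustment, 1 member had a p under 0.05 (Cox6b2, lower in Lysm-Cre mice), while 14.5% of all genes tested did, with 8.55% of all genes in that direction. DESeq2 also called 0 members, against 4.77% of the genes, and gave 2 an unadjusted p under 0.05, against 12.8%. The direction was nevertheless uneven. Fitted fold changes (Lysm-Cre over control) were above 0 in 67 members and below 0 in 18, whereas 49.4% of all genes tested were above 0. The median log2 fold change was 0.11 over the members and -0.002 over all genes tested. These shifts were small, with 77 of the 85 members within 0.25 of 0 on the log2 scale, and only Cox6a2 and Cox8b reached a log2 fold change of 1, which 2.12% of all genes tested did.

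**Figure D1:**
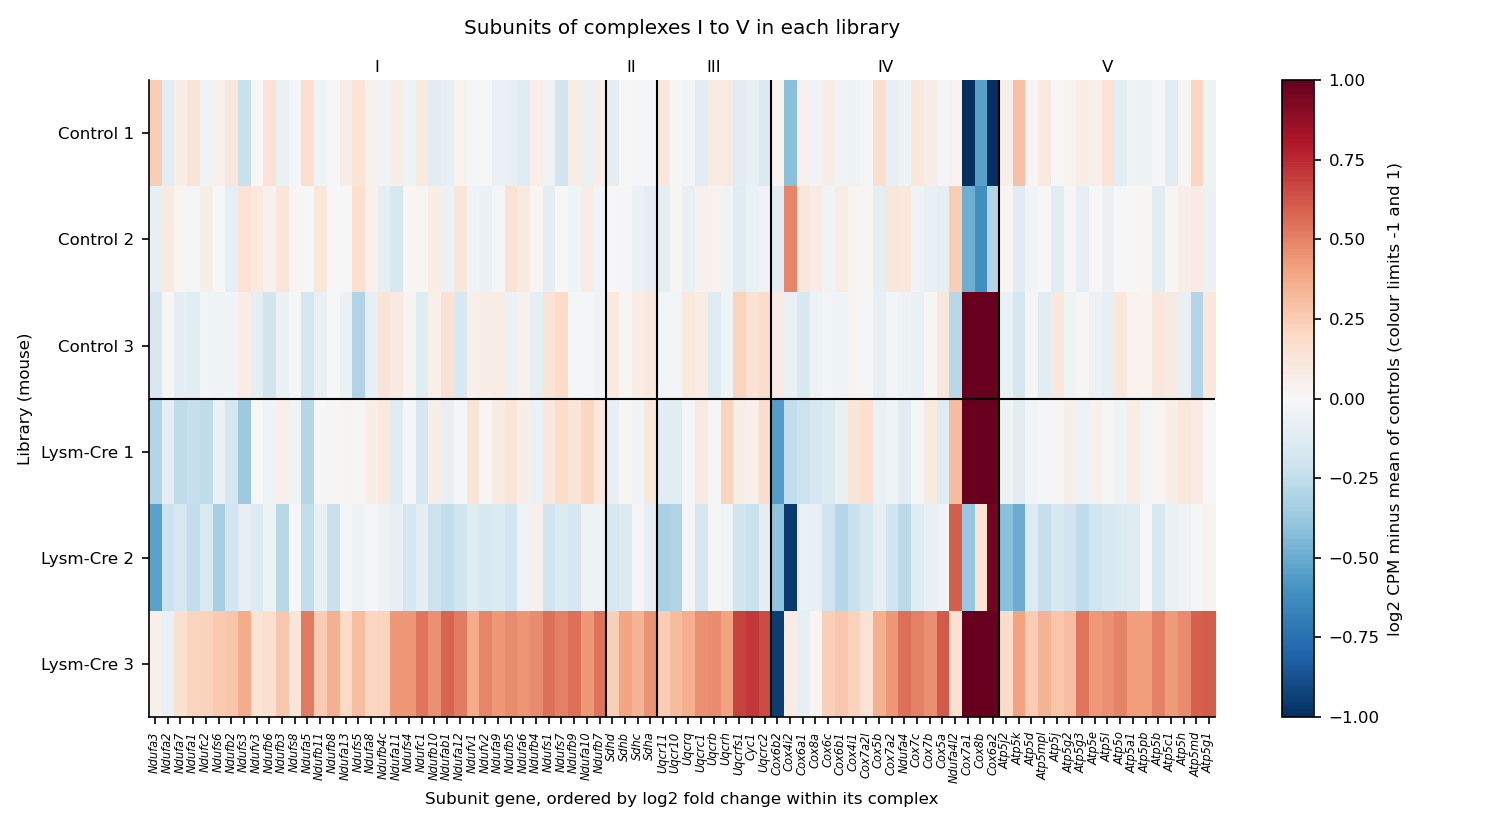
Heat map of 84 of the 85 tested subunits (columns, grouped by complex and ordered by log2 fold change) in the 6 libraries (rows); colour gives log2 CPM minus the mean of the 3 controls, limited to -1 and 1. The row of Lysm-Cre mouse 3 is red almost throughout, the row of Lysm-Cre mouse 2 is mostly blue, and Cox7a1, Cox8b and Cox6a2 at the right end of complex IV also vary strongly among the controls.

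A single Lysm-Cre library carried the shift. Lysm-Cre mouse 3 had the highest level of the 6 libraries in 77 of 85 subunits, against 19.3% of all genes tested, and Lysm-Cre mouse 2 had the lowest in 47, against 16.3%. Compared with the control of the same number, Lysm-Cre mouse 3 was higher in 83 subunits, mouse 1 in 46 and mouse 2 in 15 (50%, 50% and 49.4% of all genes tested for pairs 3, 1 and 2). Groups did not overlap in any subunit with a higher level in Lysm-Cre mice, where 8.94% of all genes tested showed such a separation. In 1 subunit, Cox6b2, all Lysm-Cre values lay below the controls, as in 11.4% of all genes tested. The subunits were much more alike among the controls than among the Lysm-Cre mice. The median SD of log2 CPM over the 3 mice was 0.0974 in the controls and 0.281 in the Lysm-Cre mice, compared with 0.106 and 0.130 over all genes tested. Without Lysm-Cre mouse 3, the median log2 fold change of the subunits was -0.07, with 20 above 0 and 48.5% of all genes tested above 0. The same library held the most muscle RNA, and the part of muscle RNA in the shift was not tested beyond the fit with a muscle covariate given further on.

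Complex I, the NADH dehydrogenase, had 29 of its 37 nuclear subunits above 0, with a median log2 fold change of 0.09 and a range from -0.25 to 0.22. Mean log2 CPM over its subunits was 4.88, 4.89 and 4.85 in control mice 1 to 3 and 4.85, 4.73 and 5.22 in Lysm-Cre mice 1 to 3. Lysm-Cre mice 1 and 2 lay below the lowest control and mouse 3 above the highest. The 7 core subunits, which carry the flavin, the iron-sulphur clusters and the ubiquinone pocket, had a median of 0.14, and the 30 accessory subunits had a median of 0.09. Ndufv1, which binds NADH and the flavin, had 65.4, 64.4 and 68.5 CPM in the controls and 72.1, 60.8 and 85.6 CPM in the Lysm-Cre mice (log2 fold change 0.14 ± 0.12 SE, edgeR adjusted p = 0.655). Its values straddled the controls. The iron-sulphur subunit Ndufs1 ran at 52.4, 50.1 and 58.9 CPM in the controls and 57.9, 46.7 and 78.8 CPM in the Lysm-Cre mice. Lysm-Cre mouse 2 was its lowest library and mouse 3 its highest. The core genes Ndufs3, Ndufs7, Ndufs8 and Ndufv2 had log2 fold changes of -0.001, 0.20, 0.03 and 0.14.

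Among the accessory subunits of complex I, Ndufb7 had the highest log2 fold change (0.22 ± 0.15 SE, edgeR adjusted p = 0.561), with 29.6, 27.8 and 27.6 CPM in the controls and 30.6, 27.3 and 41.2 CPM in the Lysm-Cre mice. Ndufa3 had the lowest (-0.25 ± 0.17 SE, edgeR adjusted p = 0.568), with 23.8, 19.0 and 17.9 CPM against 16.3, 13.9 and 20.8 CPM. Both sets of values overlapped between the groups. Ndufb4c, a copy of Ndufb4 whose reads may be shared with it, had 6.67 to 7.79 CPM in the controls and 6.87 to 8.32 CPM in the Lysm-Cre mice and is uncertain for that reason. The adjusted p values of complex I ran from 0.478 to 0.998.

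In complex II, succinate dehydrogenase, which also works in the citric acid cycle, all 4 subunits were above 0 and the median log2 fold change was 0.11. Sdha, the flavoprotein that oxidises succinate, had 140, 133 and 152 CPM in the controls and 153, 134 and 193 CPM in the Lysm-Cre mice (log2 fold change 0.17 ± 0.13 SE, edgeR adjusted p = 0.618). It was higher in the Lysm-Cre mouse of all 3 same-numbered pairs, yet Lysm-Cre mouse 2 differed by less than 1 CPM from control mouse 2 and the groups overlapped. Sdhb, the iron-sulphur subunit, had 56.5, 55.9 and 56.9 CPM against 56.8, 51.2 and 74.3 CPM. The membrane anchors Sdhc and Sdhd had log2 fold changes of 0.11 and 0.01. For all 4 genes Lysm-Cre mouse 3 was the highest library.

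Complex III, the cytochrome bc1 complex, had the highest median, 0.17, with 7 of 9 subunits above 0 and Lysm-Cre mouse 3 the highest library for all 9. Uqcrc2, a core structural subunit, had 65.9, 70.9 and 82.6 CPM in the controls and 82.8, 68.6 and 115 CPM in the Lysm-Cre mice (log2 fold change 0.28 ± 0.19 SE, edgeR adjusted p = 0.557). Cyc1, the cytochrome c1 that passes electrons to cytochrome c, had 50.9, 51.4 and 59.3 CPM against 55.8, 46.0 and 87.7 CPM, and Uqcrfs1, the Rieske iron-sulphur protein, had 53.6, 53.1 and 67.2 CPM against 59.8, 50.7 and 91.9 CPM. In these 3 genes control mouse 3 was the highest control and Lysm-Cre mouse 3 the highest of all. The core subunit Uqcrc1 had a log2 fold change of 0.15. Uqcr11, a small accessory subunit, was lowest at -0.04 ± 0.15 SE. Adjusted p values in complex III ran from 0.471 to 0.989.

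Complex V, ATP synthase, had 15 of 17 subunits above 0 and a median of 0.13, and Lysm-Cre mouse 3 was the highest library in all 17. Mean log2 CPM was 6.27, 6.22 and 6.22 in the controls (SD 0.031) and 6.25, 6.08 and 6.66 in the Lysm-Cre mice (SD 0.299). Atp5b, the catalytic beta subunit, had 510, 478 and 556 CPM in the controls and 520, 461 and 730 CPM in the Lysm-Cre mice. Atp5a1, its alpha partner, had 443, 458 and 469 CPM against 481, 419 and 608 CPM. Both genes were lowest in Lysm-Cre mouse 2, and their log2 fold changes were 0.15 ± 0.17 and 0.14 ± 0.13 (SE). Atp5g1, Atp5g2 and Atp5g3 encode the same mature subunit c, which forms the rotating ring. Atp5g1 had 49.6, 49.5 and 55.4 CPM against 51.6, 52.7 and 78.3 CPM and the highest log2 fold change of complex V (0.24 ± 0.16 SE, edgeR adjusted p = 0.561). Its ring partners Atp5g2 and Atp5g3 were at 0.07 and 0.12. The membrane subunit gene Atp5j2 was lowest at -0.08 ± 0.14 SE.

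**Figure D2:**
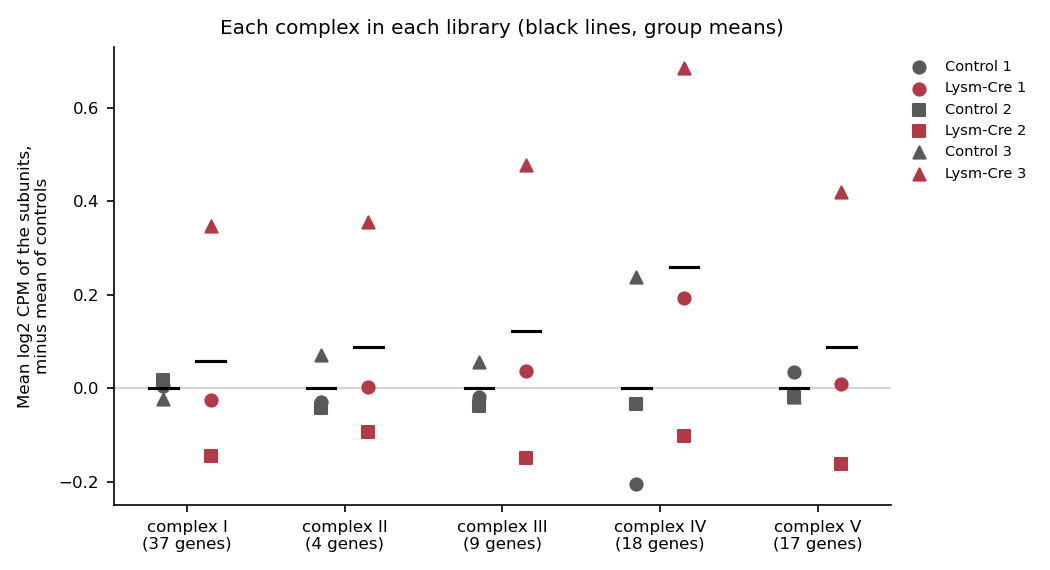
Mean log2 CPM of the tested subunits of each complex in each library, minus the mean of the 3 controls (grey, controls; red, Lysm-Cre; marker shape, replicate number; black lines, group means). In each of the 5 complexes Lysm-Cre mouse 3 is the highest point, and Lysm-Cre mouse 2 is the lowest in all but complex IV, where control mouse 1 is lowest; without the tissue-specific isoforms Lysm-Cre mouse 2 is lowest there too.

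On a per-length scale (TPM, which corrects reads for transcript length) the 86 genes together made up 2.34% to 3.14% of each library. Summed TPM of complex V was 8490, 8429 and 8635 in the controls and 8986, 8124 and 11390 in the Lysm-Cre mice, and complex II, with 4 genes, summed to 551 to 617 TPM against 566 to 723 TPM. Averaged over the 6 libraries, the most abundant members were Atp5e at 944 TPM, Cox7c at 924 TPM and Cox4i1 at 908 TPM. Among members with reads the least abundant were Cox4i2 at 10.4 TPM and Cox6b2 at 14.3 TPM, both isoforms of restricted expression. These TPM levels also depend on which transcript the reads were assigned to, since 42 members have several transcripts.

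Complex IV differed from the others in that its members ranged from -0.66 to 2.09, with 12 of 18 tested above 0 and a median of 0.08. The 12 members left without the tissue-specific isoforms had a narrower range, from -0.13 to 0.19, with 8 above 0 and a median of 0.07. Lysm-Cre mouse 3 was the highest library in 9 of these 12. Cox4i1, the ubiquitous form of subunit 4, had 180, 190 and 191 CPM in the controls and 204, 160 and 220 CPM in the Lysm-Cre mice (log2 fold change 0.06 ± 0.11 SE). Ndufa4, the COX subunit once assigned to complex I, had 36.7, 40.8 and 36.6 CPM against 35.0, 31.5 and 55.8 CPM (0.10 ± 0.21 SE). Cox5a, a matrix-side subunit, was the highest of the 12 at 0.19 ± 0.19 SE (edgeR adjusted p = 0.719). In each gene the Lysm-Cre mice spanned the control values.

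**Figure D3:**
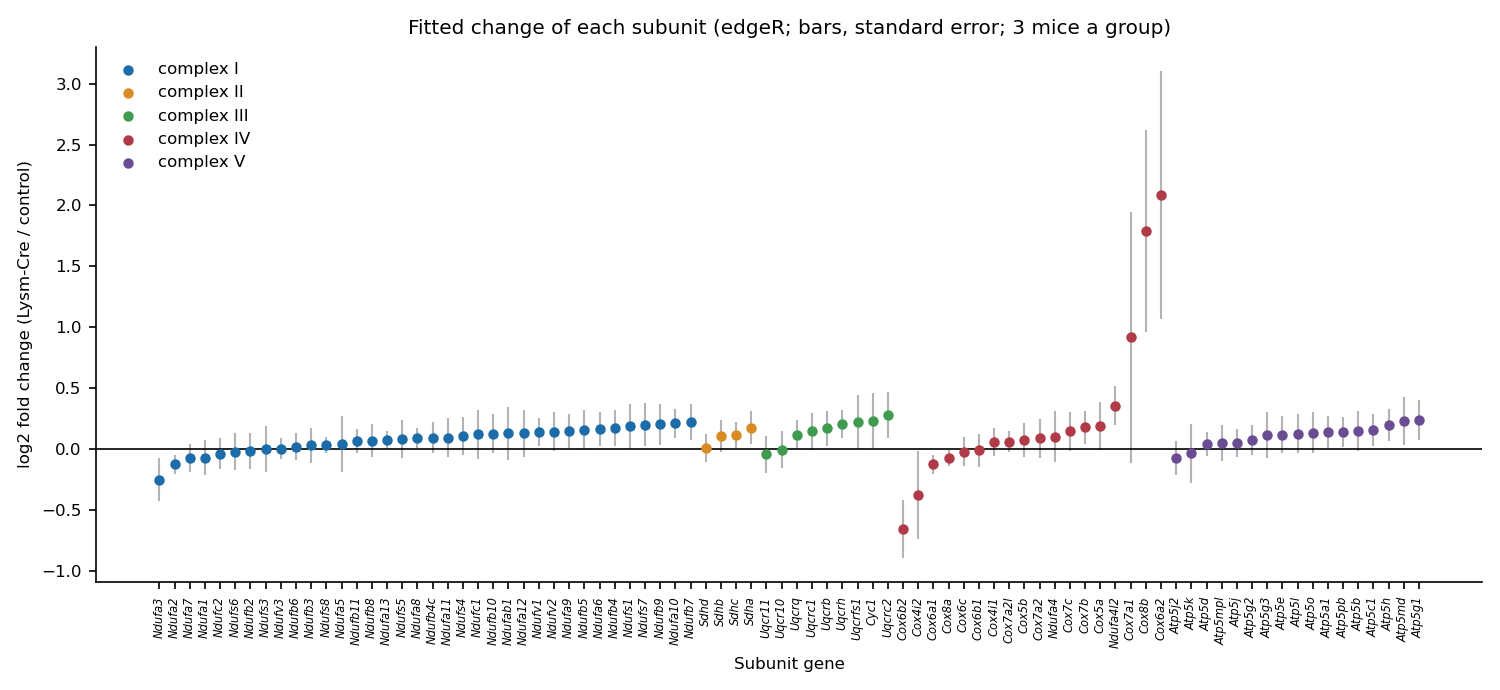
Fitted log2 fold change (Lysm-Cre over control) of 84 of the 85 tested subunits, coloured by complex and ordered within it; grey bars are standard errors from edgeR, with 3 mice a group. Nearly all points lie within 0.25 of the zero line, while Cox6a2, Cox8b and Cox7a1 stand out with wide bars and Cox6b2 lies lowest at -0.66.

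The 3 muscle isoforms of COX had the largest fitted fold changes among all subunits. Cox6a2 (NCBI Gene 12862, chr7:128205435-128206366), the heart and muscle form of subunit 6a, had 0.952, 2.46 and 11.4 CPM in control mice 1 to 3 and 11.8, 6.0 and 45.0 CPM in Lysm-Cre mice 1 to 3. Control mouse 3 and Lysm-Cre mouse 1 were almost equal, so the groups overlapped, and the log2 fold change of 2.09 ± 1.02 SE had an edgeR adjusted p of 0.412. Cox8b (12869, chr7:140898942-140900446), the muscle form of subunit 8, had 0.635, 0.601 and 2.30 CPM against 2.87, 1.08 and 8.32 CPM (1.79 ± 0.83 SE, edgeR adjusted p = 0.390). Cox7a1 (12865, chr7:30184171-30186030), the muscle form of subunit 7a, had 0.212, 0.492 and 3.02 CPM against 1.77, 0.541 and 4.70 CPM (0.92 ± 1.03 SE, edgeR adjusted p = 0.747). In all 3 genes control mouse 3 exceeded Lysm-Cre mouse 2. Coordinates are those of GRCm38.p6, the build named in the submitters' processing notes. Cox6a2 overlaps Itgad in the annotation, a gene that had at most 2 reads in any library.

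In the fit that blocked on replicate number, Cox6a2 and Cox8b had edgeR adjusted p values of 0.0966 and 0.0980, the lowest of the members, and 0 members passed (0.33% of all genes tested did). At an unadjusted p under 0.05 the block gave 3 members, Cox6a2, Cox8b and Ndufa4l2, against 15.9% of all genes tested. All 43 skeletal muscle markers had an unadjusted p under 0.05 in the same edgeR fit, and 1 passed adjustment. What the replicate numbers share is not given in the labels. Without Lysm-Cre mouse 3, the fitted log2 fold change of Cox6a2 was 0.86, that of Cox8b 0.75 and that of Cox7a1 -0.09.

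The ubiquitous partners had small fitted changes. Cox6a1 had 111, 116 and 96.9 CPM in the controls and 92.8, 103 and 102 CPM in the Lysm-Cre mice (-0.13 ± 0.08 SE). Cox8a had 82.5, 89.0 and 81.4 CPM against 74.8, 79.8 and 85.5 CPM (-0.08 ± 0.07 SE), and Cox7a2 had 38.3, 43.7 and 39.6 CPM against 39.3, 35.4 and 54.6 CPM (0.09 ± 0.16 SE). Within each library the log2 ratio of isoform to partner reads needs no scaling between libraries. For Cox6a2 over Cox6a1 it was -6.83, -5.54 and -3.08 in the controls and -2.97, -4.09 and -1.17 in the Lysm-Cre mice, a difference in means of 2.41. The ratio of Cox8b to Cox8a was -6.96, -7.15 and -5.13 against -4.69, -6.17 and -3.36, a difference of 1.67, and that of Cox7a1 to Cox7a2 was -7.33, -6.40 and -3.70 against -4.45, -5.96 and -3.53, a difference of 1.16. All 3 ratios were higher in the Lysm-Cre mouse of each same-numbered pair, while the groups overlapped. Two-sided exact permutation tests gave p = 0.2 for Cox6a2, 0.2 for Cox8b and 0.4 for Cox7a1, each 0.4 after adjustment over the 4 ratios tested, and 3 mice against 3 cannot give a p below 0.1. In TPM, Cox6a2 was 0.629% to 7.86% of the sum of both forms in the controls and 4.06% to 24.4% in the Lysm-Cre mice, so the ubiquitous form was the larger share in every library.

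**Figure D4:**
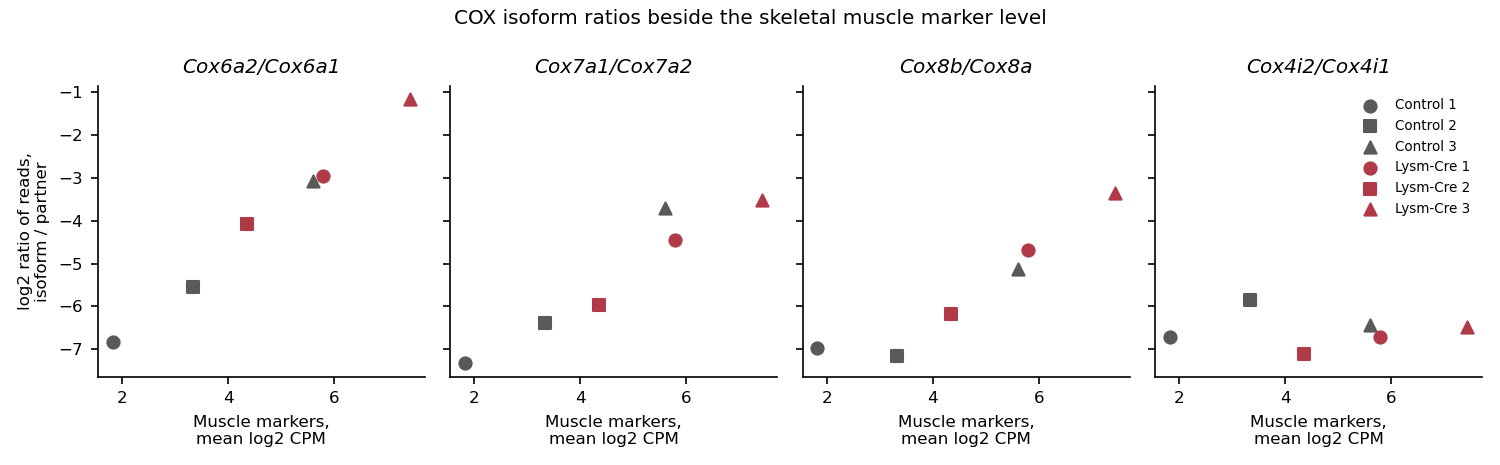
log2 ratio of isoform to partner reads in each library (y axis) against the mean log2 CPM of 43 skeletal muscle markers (x axis), for 4 isoform pairs (grey, controls; red, Lysm-Cre; marker shape, replicate number). All 3 ratios of muscle isoforms are lowest in control mice 1 and 2, with the least muscle RNA, and highest in Lysm-Cre mouse 3, with the most, whereas Cox4i2 to Cox4i1 is highest in control mouse 2.

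All 3 muscle isoforms were highest in Lysm-Cre mouse 3, the library with the most muscle RNA, but only Cox6a2 followed the marker order exactly. Cox7a1 was higher in control mouse 3 (3.02 CPM) than in Lysm-Cre mouse 1 (1.77 CPM), against the marker order. The mean log2 CPM of the 43 markers was 1.83, 3.33 and 5.60 in the controls and 5.79, 4.35 and 7.43 in the Lysm-Cre mice, and the CPM of Cox6a2 put the 6 libraries in exactly this order, the only 1 of the 85 members to do so. With the muscle marker level as a covariate, the fitted log2 fold changes were 0.13 for Cox6a2, 0.06 for Cox8b and -1.05 for Cox7a1. For Cox7a1 this fit gave an edgeR unadjusted p of 0.0114 and an adjusted p of 0.261. Brown adipocytes also express Cox7a1 and Cox8b. Ucp1, their defining gene, had 0 to 2 reads in each library. Cidea, another of their markers, had 0, 1 and 3 reads in the controls and 9, 5 and 14 reads in the Lysm-Cre mice. That was higher without overlap (8.94% of all genes tested were), but Cidea was too low to be tested. Zic1 had 5, 4 and 18 reads against 19, 7 and 22 reads. Dio2 had 70, 54 and 59 reads against 37, 47 and 39, and Kcnk3 196, 200 and 179 against 128, 147 and 53. Both were lower without overlap (11.4% of all genes tested were). Of the 4 markers tested, 1 was above 0 and 3 were below 0. The 8 brown adipocyte markers summed to 24.0 to 28.2 CPM in the controls and 16.2 to 22.1 CPM in the Lysm-Cre mice, a sum made up mostly of Prdm16 and Kcnk3. The part of brown adipocytes in the isoform values was not tested.

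The promoters of Cox8b and Cox7a1, with those of their ubiquitous partners Cox8a and Cox7a2 and of Cox6a1, the partner of Cox6a2, are shown because the isoform ratios turn on these genes. Each run covers the 250 bases before a RefSeq start on GRCm38.p6, read 5′ to 3′ on the gene's strand. Capitals mark matches to the motifs given further on. The run of Cox7a2 lies inside the annotated span of that gene (chr9:79755241-79771422), which has 2 transcripts. That of Cox8b (chr7:140900447-140900696, minus strand) holds the E-box CAGCTG, the sequence that myogenic factors bind. Those of Cox7a1 (chr7:30183921-30184170, plus strand), Cox8a (chr19:7217617-7217866, minus strand) and Cox7a2 (chr9:79759854-79760103, minus strand) hold none of the motifs in these bases. That of Cox6a1 (chr5:115348959-115349208, minus strand) holds a pair of NRF1 matches and a GABP match, which do not overlap each other. The wider window of Cox8a used for the motif counts, which adds 50 bases after the start, does hold a GABP match.
Cox8b: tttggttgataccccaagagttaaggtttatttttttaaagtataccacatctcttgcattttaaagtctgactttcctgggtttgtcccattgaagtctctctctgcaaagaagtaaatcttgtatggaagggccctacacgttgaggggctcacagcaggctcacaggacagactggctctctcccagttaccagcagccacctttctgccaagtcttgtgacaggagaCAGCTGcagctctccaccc
Cox8a: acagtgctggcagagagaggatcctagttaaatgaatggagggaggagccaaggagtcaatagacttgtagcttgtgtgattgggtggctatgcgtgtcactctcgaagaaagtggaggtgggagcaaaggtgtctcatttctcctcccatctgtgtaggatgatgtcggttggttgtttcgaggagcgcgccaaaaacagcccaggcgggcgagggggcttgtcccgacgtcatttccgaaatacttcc
Cox7a1: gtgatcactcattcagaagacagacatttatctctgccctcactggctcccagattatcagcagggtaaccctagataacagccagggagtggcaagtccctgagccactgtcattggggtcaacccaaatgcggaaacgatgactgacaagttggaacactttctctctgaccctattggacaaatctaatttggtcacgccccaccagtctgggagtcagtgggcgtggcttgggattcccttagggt
Cox7a2: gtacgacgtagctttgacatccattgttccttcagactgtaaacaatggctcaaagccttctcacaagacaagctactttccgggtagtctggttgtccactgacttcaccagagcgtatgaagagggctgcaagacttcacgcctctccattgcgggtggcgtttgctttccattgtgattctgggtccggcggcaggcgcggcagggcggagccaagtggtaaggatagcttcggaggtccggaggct
Cox6a1: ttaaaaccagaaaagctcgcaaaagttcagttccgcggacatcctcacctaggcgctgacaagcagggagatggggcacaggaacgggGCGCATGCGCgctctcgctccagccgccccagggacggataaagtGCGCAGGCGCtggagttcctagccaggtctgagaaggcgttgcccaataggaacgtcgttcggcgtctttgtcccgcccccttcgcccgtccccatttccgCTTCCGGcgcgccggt

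The other restricted isoforms of complex IV did not follow the muscle markers. Cox6b2, best known from testis, was the only subunit with an unadjusted p under 0.05 and the only 1 whose groups separated. It had 2.01, 1.80 and 2.08 CPM in the controls and 1.30, 1.46 and 0.973 CPM in the Lysm-Cre mice, a log2 fold change of -0.66 ± 0.24 SE (edgeR adjusted p = 0.269). Its ubiquitous form Cox6b1 was at -0.01 ± 0.13 SE. Cox7b2, another testis form, had 0 reads in all libraries, where a count of 0 allows up to 3 reads per library, and its ubiquitous form Cox7b was at 0.18 ± 0.14 SE. Cox4i2, the lung and hypoxia-inducible form of subunit 4, had 1.69, 3.28 and 2.19 CPM against 1.93, 1.14 and 2.43 CPM (-0.38 ± 0.36 SE, edgeR adjusted p = 0.693). Its ratio to Cox4i1 differed by -0.44 between the groups (two-sided exact permutation p = 0.3, adjusted p = 0.4).

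Ndufa4l2, a hypoxia-inducible relative of Ndufa4, had 31.8, 36.8 and 25.6 CPM in the controls and 38.8, 47.2 and 34.5 CPM in the Lysm-Cre mice (0.36 ± 0.16 SE, edgeR adjusted p = 0.380, 0.112 with the replicate block). It ran opposite to most subunits within the Lysm-Cre group, since mouse 2 was its highest library and mouse 3 its lowest of the 3. Its fitted log2 fold change was 0.45 without Lysm-Cre mouse 3 and 0.62 with the muscle covariate. Ndufa4l2 overlaps Shmt2 in the annotation, whose 42.0 to 52.4 CPM in the controls and 46.3 to 54.1 CPM in the Lysm-Cre mice overlapped.

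The direction of the complexes depended on Lysm-Cre mouse 3, and it also turned with the muscle covariate. Without Lysm-Cre mouse 3, the medians of complexes I to V were -0.07, -0.04, -0.04, -0.09 and -0.07. With the muscle marker level as a covariate they were -0.09, -0.06, -0.12, -0.09 and -0.07, and 17 of the 85 subunits were above 0, against 46.6% of all genes tested. With the replicate block the medians stayed positive, from 0.06 in complex IV to 0.15 in complex III. The muscle level and the group shared variance in these 6 libraries, since the 3 highest marker levels included 2 of the 3 Lysm-Cre mice.

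**Figure D5:**
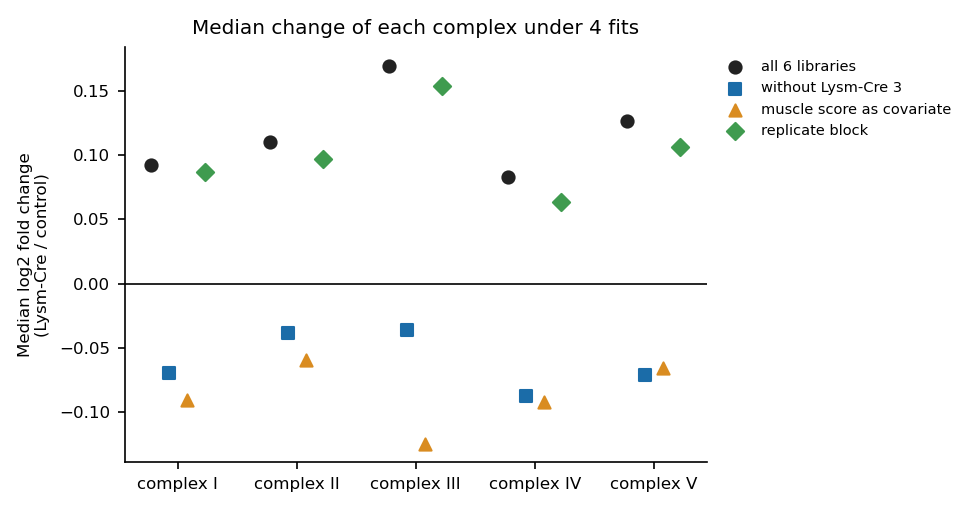
Median log2 fold change (Lysm-Cre over control) of the tested subunits of each complex under 4 edgeR fits: all 6 libraries, without Lysm-Cre mouse 3, with the muscle marker level as a covariate, and with replicate pairs as a block. The all-library and block fits lie above 0 in each complex, at 0.06 to 0.17, and the other 2 fits lie below 0, at -0.12 to -0.04.

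Genes that build, feed or regulate the chain showed a weaker lean. Of 82 further genes tested, 54 were above 0 (49.4% of all genes tested were), with a median log2 fold change of 0.05. In edgeR, 0 had an adjusted p under 0.05 (0.898% of all genes tested did) and 2 an unadjusted p under 0.05 (14.5% of all genes tested did). Lysm-Cre mouse 3 was the highest library in 55 of the 82, against 19.3% of all genes tested. Without that mouse 26 were above 0, with a median of -0.03 (48.5% of all genes tested were above 0). With the muscle covariate 31 were above 0, against 46.6%. Assembly factors of complex I were even, with 7 of 14 above 0 and the largest change in Ndufaf6 (0.28 ± 0.20 SE), at 2.74 to 3.07 CPM against 2.76 to 4.22 CPM. Those of complex III were all 6 above 0, led by Ttc19, which clears Rieske protein fragments from the complex. Ttc19 had 37.8, 39.2 and 41.6 CPM in the controls and 46.6, 43.8 and 46.7 CPM in the Lysm-Cre mice, without overlap (0.21 ± 0.06 SE, edgeR adjusted p = 0.186). Sdhaf3, a complex II assembly factor, also separated at 1.37 to 1.80 CPM against 1.95 to 2.30 CPM (0.45 ± 0.21 SE, edgeR adjusted p = 0.389), and it was the only 1 of the 4 factors of that complex above 0. Coq4, of ubiquinone synthesis, was the other gene higher without overlap, at 6.40 to 6.78 CPM against 6.81 to 6.88 CPM, so that 3 of the 82 separated upwards, against 8.94% of all genes tested. Among 19 complex IV factors 13 were above 0, and the largest change was in Cox20 (-0.23 ± 0.15 SE). Of the 4 factors of complex V, 3 were above 0, and the ATPase inhibitor gene Atpif1 was at -0.16 ± 0.15 SE.

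Of the electron carrier genes (cytochrome c, the electron transfer flavoprotein and ubiquinone synthesis), 9 of 13 were above 0, with the largest value in Coq9 (0.29 ± 0.24 SE). The adenine nucleotide carriers, which exchange ADP for ATP, had opposite signs. Slc25a4, the heart and muscle form, had 268, 262 and 299 CPM in the controls and 328, 256 and 474 CPM in the Lysm-Cre mice (0.35 ± 0.21 SE, edgeR adjusted p = 0.499), and its fitted value was -0.01 with the muscle covariate. Slc25a5, the form of proliferating cells, had 151, 155 and 156 CPM against 134, 145 and 141 CPM (-0.14 ± 0.05 SE, edgeR adjusted p = 0.264). It was the only 1 of the 82 further genes that was lower without overlap, against 11.4% of all genes tested. It was at -0.15 both without Lysm-Cre mouse 3 and with the muscle covariate. Among 16 regulators of biogenesis 11 were above 0. Perm1, a muscle-restricted activator of oxidative genes, had 0.212, 0.273 and 2.30 CPM against 2.35, 0.865 and 12.0 CPM, following the muscle markers (2.44 ± 1.18 SE, edgeR adjusted p = 0.409, 0.0634 with the block, fitted value 0.01 with the muscle covariate). The 13 mitochondrially encoded subunits were not analysed here.

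The size of the coding sequence, which the choice of members did not use, varied with the fold change. Leaving out the tissue-specific isoforms, 76 of 79 subunits had a coding length in the GENCODE annotation. It had a median of 472.5 bases in the 60 subunits above 0 and of 280.5 bases in the 16 below 0. Of subunits longer than 500 bases, such as Sdha, Ndufs1 and Atp5a1, 28 of 29 were above 0, and of the shorter ones, such as Ndufa3 and Uqcr11, 32 of 47. Over all genes tested, of any length, 49.4% were above 0. These counts come from the fit with all 6 libraries. Without Lysm-Cre mouse 3, 17 of the 79 subunits were above 0, against 48.5% of all genes tested. Across these 76 genes, which share libraries and are not independent, Spearman's rho between coding length and log2 fold change was 0.492, compared with 0.035 across all 13865 genes with a length. It was 0.497 without Lysm-Cre mouse 3 and 0.066 with the muscle covariate. The libraries of 1 group also differed in this respect. Taken against the control mean, which includes each control itself, rho was -0.539, -0.066 and 0.566 in control mice 1 to 3 and 0.533, 0.241 and 0.286 in Lysm-Cre mice 1 to 3. Deviations of the controls from their own mean balance out in each gene, which pushes their rhos to opposite signs. The range of rho therefore cannot be compared between the groups.

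Promoter windows of 300 bases (250 before and 50 after the start, RefSeq, GRCm38.p6) were found for 69 of the 86 members and searched on both strands. Letters matching NRF1, a factor known for driving nuclear respiratory genes, were in 17 windows (24.6%), compared with 10.4% of the 11304 tested genes with a window. GABP letters (CCGGAAG) were also in 17 (24.6%, against 18.4%), ERR letters (AAGGTCA) in 8 (11.6%, against 3.8%) and YY1 letters (AAGATGG) in 11 (15.9%, against 7.86%). The E-box CAGCTG was in 6 (8.7%, against 18.5%), among them Cox8b, and MEF2 letters were in 0 (against 2.3%). NRF1 letters stood in 7 of 32 windows of complex I, 2 of 3 of complex II, 1 of 5 of complex III, 1 of 14 of complex IV and 6 of 15 of complex V. A match is a description of the letters only.

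At least 100 reads were counted in every library for 80 members. Of the members, 28 overlap another annotated gene, so that a share of their reads may belong to that gene. Cox8c, Ndufb1 and Ndufb4b, protein-coding genes that the same rule would take, were not analysed here.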

How the data were processed

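Whole tendon repair tissue of 3 control and 3 Lysm-Cre; Ampkα1fl/fl mice was sequenced on the BGISEQ platform, and the 2 groups were taken from the sample labels. The deposited table gives estimated counts per RefSeq transcript, not scaled between libraries, and TPM values that the authors scaled to the same total in every library. The genome build in the submitters' processing notes is GRCm38.p6, and the aligner and counter are not given in the sources used here. Left aside were 6 FPKM columns, 6 normalised count columns and 8 averages over groups.

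Estimated counts of 65053 transcripts were summed per gene and rounded, and 18049 of 18099 genes (99.72%) received a symbol. Genes were filtered with filterByExpr, scaled by TMM and tested by edgeR's quasi-likelihood F test (edgeR 4.0.16, R 4.3.3) without a block, with Benjamini-Hochberg adjustment over 14261 genes and a threshold of 0.05. Members were read out of this fit, medians per complex were given without a test, and isoform ratios (0.5 reads added to each gene) were tested by exact permutation. Alternatives were DESeq2 1.42.0, RLE and upper-quartile factors, other count filters, a replicate block, the mean log2 CPM of 43 muscle markers as a covariate, and leaving out each library in turn. Same-numbered mice deviated together from their group means (correlations of 0.184, 0.118 and 0.310 over 14261 genes). The numbers were used as pairs only in the replicate block and in comparisons of same-numbered mice, not in the main fit. The labels do not say what the numbers share. A different matching, control mice 1, 2 and 3 with Lysm-Cre mice 2, 3 and 1, also correlated positively, at 0.501, 0.127 and 0.102. Values that rest on the pairing are uncertain for that reason. The fits were tested on simulated data first.

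Members and lists were chosen with earlier results of these data known. The genes named are the tissue-specific isoforms and their ubiquitous partners, the core subunits of complex I, all of complex II, the main subunits of complexes III and V, the highest and lowest member of each complex, members with an unadjusted p under 0.05 or with groups that do not overlap, the pathway gene with the largest change in each list, and Prkaa1 and Lyz2. Cox5a, Slc25a5, Ndufb4c and the most abundant members were named after their values were seen. The values of 1 member are not reported here, although it is counted in its complex. Each library is described as 1 of 3 mice per group, and p-values measure only the spread between these libraries.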

Additional observations from a re-analysis of the deposited data

How the results depend on the processing

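The count of genes called over the whole table was 128 and depended on the method: 680 with DESeq2, 47 with the replicate block, 60 with the muscle covariate, 53 when a log2 fold change of 1 or more in size was also required, and 8 to 276 on leaving out a library. Respiratory chain subunits called stayed at 0 under every alternative run, while those at an unadjusted p under 0.05 ranged from 0 to 14, the highest without Lysm-Cre mouse 2, where 19.5% of all genes tested had such a p (10.1% to 16.1% under the others). Among medians, those of complex I (-0.0903) and complex III (-0.1245) with the muscle covariate moved by more than the spread between replicates, and leaving out Lysm-Cre mouse 3 turned the sign of all 5. The cause was not tested. Of the 37 named genes, 23 changed sign with the muscle covariate and 17 without Lysm-Cre mouse 3, against at most 4 under any other alternative. The isoform ratio differences kept their sign on leaving out each library, at 1.57 to 3.44 for Cox6a2, 0.98 to 2.39 for Cox8b, 0.40 to 2.21 for Cox7a1 and -0.63 to -0.20 for Cox4i2, and paired by replicate number as a block they gave sign-flip p values of 0.25, 0.25, 0.25 and 0.5 (exact permutation), where 3 pairs cannot give a p below 0.25. The block changed no call of a member. Depth limits the low isoforms most, since the least abundant member tested had a mean of 29.8 reads per library.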
